A study of Mus musculus with 15 samples.

Results

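Levels of 10 genes of the ATF4 arm of the integrated stress response were compared in the livers of newborn mice: Atf4, Atf3, Ddit3, Ddit4, Sesn2, Trib3, Chac1, Asns, Psat1 and Fgf21. They were taken by name, as the 10 members among 34797 gene or transcript names on the array, and each was read by its probe with the highest mean signal. All 10 were among the 27554 genes tested, each well above background on 3 or more of the 15 arrays, and 9 were well above background on every array. The exception was Fgf21, which was not in 3 hypoglycaemic livers. The liver RNA of 15 C57BL/6J pups, taken on postnatal day 1, was hybridised to Agilent 1-colour arrays, 1 array per pup. The 5 wild-type pups were littermates of 10 pups in which the miR-379/miR-410 microRNA cluster was deleted on the maternally inherited allele. Of these, 3 were named normoglycemic KO, although the design text calls them mildly hypoglycaemic, and 7 were named hypoglycaemic KO, with severe hypoglycaemia. The mean blood glucose of the wild-type pups was 58.6 ± 9.6 mg/dl (SD, n = 5), against 48.0 ± 6.9 (n = 3) in normoglycaemic KO and 19.9 ± 9.3 mg/dl (n = 7) in hypoglycaemic KO pups. The deletion was inherited and so not limited to the liver, and the KO groups were separated by glucose, so that glucose and group cannot be told apart between them.

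The integrated stress response begins when one of several kinases phosphorylates the translation initiation factor eIF2α, in response to amino acid shortage, unfolded protein in the endoplasmic reticulum, haem shortage or double-stranded RNA. General translation then slows, while the mRNA of the transcription factor ATF4 is translated more. ATF4 binds composite elements in the promoters of genes for amino acid supply, redox balance and growth restraint, and it induces brakes on its own activity. In the liver the pathway is best known from amino acid deprivation and fasting, and several of its targets are also induced by glucocorticoids, hypoxia, p53 or fasting signals.

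The element that ATF4 is known for, in the form TGATGNAA (read on both strands, so also TTNCATCA), was searched in the RefSeq promoter windows of the mouse assembly GRCm38.p6, each running from 250 bases before to 50 bases after a transcription start. It was found in 1304 of 32851 windows, or 3.97%. Of the 10 members, each of which had a window, 5 held a match: Asns, Atf3, Chac1, Fgf21 and Trib3. The matches upstream of the start are shown because 2 of these genes, Chac1 and Fgf21, hold the same letters and had group differences of opposite sign. Capitals mark the match, and each sequence is read 5′ to 3′ along the gene's own strand.
Chac1: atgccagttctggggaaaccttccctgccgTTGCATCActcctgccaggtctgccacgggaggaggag
Atf3: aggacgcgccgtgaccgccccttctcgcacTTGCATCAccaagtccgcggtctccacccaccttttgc
Fgf21: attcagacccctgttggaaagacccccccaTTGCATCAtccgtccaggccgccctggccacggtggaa
Asns: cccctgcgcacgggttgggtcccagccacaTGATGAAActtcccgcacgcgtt
The Chac1 stretch is chr2:119351019-119351086 on the plus strand, with its match starting 193 bases before the start of transcription. The Atf3 stretch is chr1:191183406-191183473 on the minus strand (110 bases before), that of Fgf21 is chr7:45615592-45615659 on the minus strand (139 bases before) and that of Asns is chr6:7693210-7693262 on the minus strand (23 bases before). Chac1, Atf3 and Fgf21 held the same letters, TTGCATCA, so that the form TGATGNAA lies on the strand opposite to the gene. Asns held TGATGAAA on the gene's own strand. In Trib3 the match began 15 bases after the start and is not printed. The related form TGACGNAA was present in 1.59% of windows and in 2 members, Atf3 and Chac1, and the cAMP response element TGACGTCA in 1.79% of windows and in 0 members. The windows of Ddit4, Sesn2, Atf4, Ddit3 and Psat1 held none of these letters. A match describes the letters of the window only.

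The deletion was checked first. Mirg, a noncoding transcript of the deleted cluster, read between 0.88 and 1.6 in the 5 wild-type libraries and between −2.8 and −2.68 in the 3 normoglycaemic KO libraries. Here and below a level is the log2 signal over the array's 75th percentile, so that a difference of 1 is a 2-fold change. In hypoglycaemic KO the lowest, median and highest Mirg levels were −3.02, −2.15 and 0.66. The value of 0.66 belonged to the library labelled hypoglycaemic KO replicate 2, which lay closer to the wild-type libraries than to the other KO libraries, and the members' differences are given with and without it. The 75th percentile of the signal ranged from 663 to 912 among arrays, and 57.9% to 76.2% of probes were well above background. The 10 hepatocyte markers tested were well above background on all 15 arrays. Exocrine pancreas transcripts marked 3 libraries: the mean level of 19 of 22 listed markers was 1.53 in wild-type replicate 2, 4.49 in normoglycaemic KO replicate 2 and 1.74 in hypoglycaemic KO replicate 3, against −3.78 to −0.59 in the other 12. The next highest were the library labelled hypoglycaemic KO replicate 2 (−0.59) and hypoglycaemic KO replicate 5 (−0.77), and a further comparison, chosen after seeing the data, leaves out all 5. Of these 19 markers, 18 to 19 were well above background in the 3 libraries and 12 to 18 in the others. In whole liver, fewer cells of a type and less RNA per cell cannot be told apart. The arrays lay on 2 slides, each holding all 3 groups, but slide 2 held only 1 normoglycaemic KO library, so that differences from that group within slide 2 rest on 1 sample. The labels do not say which pups shared a litter.

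In severe hypoglycaemia the ATF4 genes lay mostly above wild type, led by Ddit4, Chac1 and Trib3, while Fgf21 lay lower. Ddit4 was 5.96-fold higher in the hypoglycaemic KO mean, Chac1 2.94-fold and Trib3 2.77-fold, and for these 3 genes all 7 hypoglycaemic libraries exceeded all 5 wild-type ones. Such a separation upward was seen for 3 of the 10 members and for 0.711% of all genes, and a separation downward for 0 members and 0.748% of all genes. With limma, 0 of the 10 members passed a Benjamini-Hochberg adjusted p of 0.05, where 0.0181% of all genes did (5 genes, all lower). At an unadjusted p under 0.05 there were 5 higher members (Ddit4, Chac1, Trib3, Sesn2 and Asns) and 1 lower member (Fgf21), against 9.71% and 8.99% of all genes. The median difference over the members was 0.44, with 9 above 0 and 1 below, and over all genes it was 0.02, with 52.7% above 0. Between slides, 9 of 10 members had the same direction on both, Psat1 being the exception. The slides are parts of this same comparison, and the share of all genes that kept their direction was not counted. Without the library labelled hypoglycaemic KO replicate 2, 2 members passed (Ddit4 and Chac1), 7 had an unadjusted p under 0.05 and the median was 0.50. Over all genes 138 then passed, 26 of them higher and 112 lower, so that the direction of the 5 genes above is not that of every setting. These members were chosen with results of these arrays known, so the counts are a description.

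**Figure D1:**
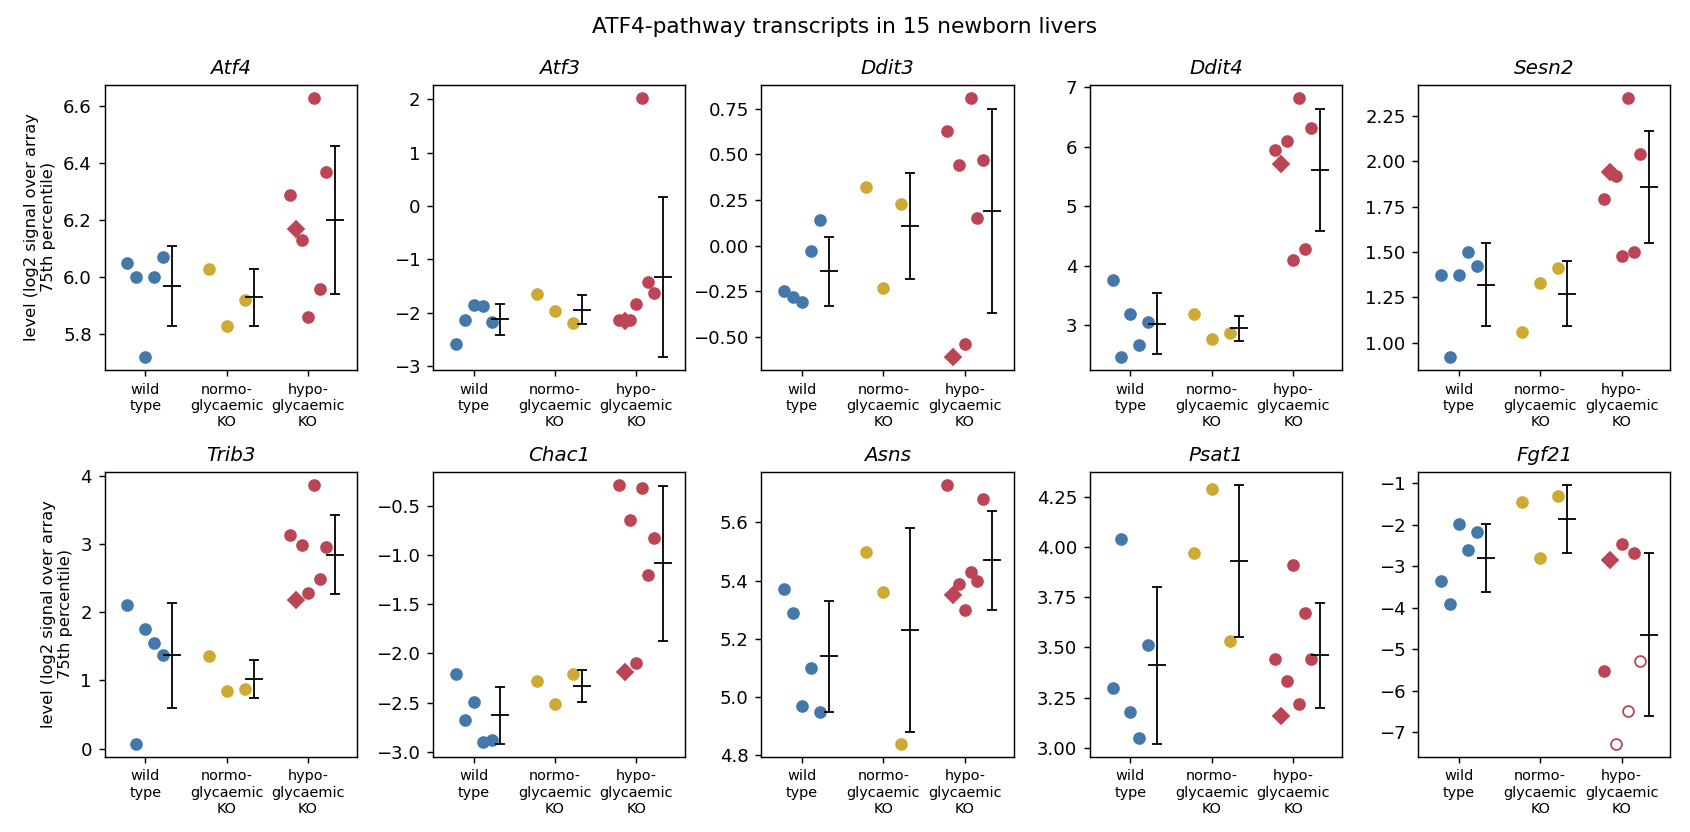
Levels of the 10 genes (log2 signal over the array's 75th percentile, one panel per gene with its own axis) in 5 wild-type, 3 normoglycaemic KO and 7 hypoglycaemic KO livers. Points are libraries, bars are means ± SD, diamonds mark the library labelled hypoglycaemic KO replicate 2 and open symbols were not well above background; the hypoglycaemic points of Ddit4, Chac1 and Trib3 all lie above the wild-type points, and 4 of those of Fgf21 lie below.

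Among the transcription factors, Atf4 itself had a small difference. Its mRNA, read at chromosome 15, 80087902 to 80087961 (mm9, plus strand, the build of the array files), had levels of 6.05, 6.00, 5.72, 6.00 and 6.07 in the wild-type libraries. The normoglycaemic KO libraries read 6.03, 5.83 and 5.92, and the hypoglycaemic ones had a lowest, median and highest level of 5.86, 6.17 and 6.63. The groups overlapped, although 5 of 7 hypoglycaemic libraries lay above every wild-type one. The difference was 0.24 (SE 0.12, 95% interval −0.02 to 0.49, limma adjusted p = 0.309). It was also 0.24 without the library labelled replicate 2. A second, dimmer Atf4 probe gave 0.44, and the mean of both probes gave 0.34 (unadjusted p = 0.0167, adjusted p = 0.178 by limma). The array measures mRNA, whereas ATF4 is controlled largely through translation, and protein was not measured.

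Atf3, a stress-induced transcription factor of the same bZIP family and an ATF4 target, was low in nearly all libraries. It read −2.58, −2.13, −1.86, −1.87 and −2.18 in wild-type, and −1.64, −1.96 and −2.20 in normoglycaemic KO. The hypoglycaemic libraries had a lowest, median and highest level of −2.15, −1.83 and 2.03. A single liver, hypoglycaemic KO replicate 5, stood at 2.03, and the next highest read −1.42. The difference from wild type was 0.80 (SE 0.59, adjusted p = 0.495) with this library and 0.24 without it, and 0.93 (adjusted p = 0.446) without the library labelled replicate 2. Ddit3 encodes CHOP, a partner of ATF4 in prolonged stress that is linked to cell death. Its wild-type levels were −0.25, −0.28, −0.31, −0.03 and 0.14, its normoglycaemic KO levels were 0.32, −0.23 and 0.23, and the hypoglycaemic ones ran from −0.61 through a median of 0.44 to 0.81. The hypoglycaemic libraries lay on both sides of wild type: 5 were above all wild-type values and 2, replicate 4 and the library labelled replicate 2, were below all of them. The Ddit3 difference of 0.34 (SE 0.24, adjusted p = 0.467) was within this spread, and without the library labelled replicate 2 it was 0.47 (unadjusted p = 0.0422, adjusted p = 0.251 by limma). Its probe, at chromosome 10, 126732518 to 126732821 (mm9, plus strand), covers a stretch longer than itself.

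Ddit4 and Sesn2 restrain the growth kinase complex mTORC1. Ddit4, also called REDD1, acts through the TSC complex, and Sesn2 is a sensor of leucine. Ddit4 had the largest difference of all members and the 8th highest of 27554 genes. Its levels, read at chromosome 10, 59412486 to 59412545 (mm9, minus strand), were 3.77, 2.47, 3.19, 2.67 and 3.06 in wild-type and 3.19, 2.78 and 2.88 in normoglycaemic KO. In hypoglycaemic KO the lowest, median and highest were 4.10, 5.95 and 6.82. Every hypoglycaemic library exceeded every library of the other groups, with the 2 lowest in replicates 4 and 6. The difference from wild type was 2.58 (SE 0.43, 95% interval 1.65 to 3.50, limma adjusted p = 0.0591). It was 2.34 within slide 1, 2.83 within slide 2, 2.35 without the 3 libraries richest in pancreas transcripts and 1.99 (adjusted p = 0.33) without the 5 richest. Ddit4 passed the threshold without the library labelled hypoglycaemic KO replicate 2 (2.56, adjusted p = 0.0334), without replicate 4 of that group (0.0194) or without wild-type replicate 1 (0.0300). Over the 15 alternatives that leave out a library, the adjusted p ranged from 0.0194 to 0.164.

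Sesn2 (chromosome 4, 132048858 to 132048917, mm9, minus strand) showed the same order of groups on a smaller scale. Its wild-type levels were 1.37, 0.92, 1.37, 1.5 and 1.42, its normoglycaemic KO levels 1.06, 1.33 and 1.41, and the hypoglycaemic ones ran from 1.48 through a median of 1.92 to 2.35. Of the 7 hypoglycaemic libraries, 5 lay above all wild-type ones, and the other 2 fell just short of the highest, wild-type replicate 4. The difference was 0.54, or 1.45-fold (SE 0.15, adjusted p = 0.11), with 0.63 and 0.53 within the slides, 0.43 without the 3 pancreas-rich libraries, 0.28 (adjusted p = 0.546) without the 5 richest and 0.53 (adjusted p = 0.122) without the library labelled replicate 2.

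Trib3 and Chac1 are classical downstream targets. Trib3 encodes a pseudokinase that is induced by ATF4 and CHOP and feeds back on ATF4, and in the liver it is known as an inhibitor of AKT. Its levels (chromosome 2, 152163161 to 152163220, mm9, minus strand) were 2.10, 0.07, 1.76, 1.55 and 1.37 in wild-type and 1.35, 0.84 and 0.87 in normoglycaemic KO. In hypoglycaemic KO they were 2.18 at the lowest, 2.96 at the median and 3.87 at the highest. The groups did not overlap, but the lowest hypoglycaemic value, in the library labelled replicate 2, was only just above wild-type replicate 1. Wild-type replicate 2, with pancreas transcripts, was the lowest of all. The difference was 1.47 (SE 0.34, 95% interval 0.74 to 2.20, adjusted p = 0.0888), 1.55 within each slide, 1.12 without the 3 pancreas-rich libraries, 1.02 without the 5 richest and 1.58 (adjusted p = 0.0611) without the library labelled hypoglycaemic KO replicate 2. Without wild-type replicate 1 the adjusted p was 0.0397, and without hypoglycaemic KO replicate 4 it was 0.0466. Leaving out any 1 library gave adjusted p-values from 0.0397 to 0.211.

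Chac1 encodes an enzyme that degrades glutathione and is induced through ATF4. It was faint in the control livers (chromosome 2, 119179990 to 119180049, mm9, plus strand): −2.21, −2.68, −2.49, −2.90 and −2.88 in wild-type, and −2.28, −2.51 and −2.21 in normoglycaemic KO. The hypoglycaemic libraries had a lowest, median and highest level of −2.19, −0.82 and −0.28. All 7 lay above all controls, but the library labelled replicate 2 and replicate 4 (−2.10) did so by a small margin. The library labelled replicate 2 thus had a high Ddit4 level of 5.71 and a Chac1 level next to that of wild type. The Chac1 difference was 1.55 (SE 0.32, 95% interval 0.86 to 2.25, adjusted p = 0.0844), with 1.14 within slide 1, 1.98 within slide 2, 1.47 without the 3 pancreas-rich libraries and 1.52 without the 5 richest. It passed the threshold without the library labelled hypoglycaemic KO replicate 2 (1.74, adjusted p = 0.0201), without replicate 4 of that group (0.0341) and without wild-type replicate 1 (0.0397). Over all libraries left out in turn, the adjusted p ranged from 0.0201 to 0.206.

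The 2 enzymes of amino acid synthesis had smaller differences. Asns, asparagine synthetase, is a standard readout of amino acid shortage (chromosome 6, 7625171 to 7625228, mm9, minus strand). It read 5.37, 5.29, 4.97, 5.10 and 4.95 in wild-type, 5.50, 5.36 and 4.84 in normoglycaemic KO, and between 5.30 and 5.73 with a median of 5.40 in hypoglycaemic KO. The range of the hypoglycaemic libraries overlapped both other groups. The Asns difference was 0.33, or 1.26-fold (SE 0.12, adjusted p = 0.178), with 0.11 within slide 1, 0.49 within slide 2 and 0.35 (adjusted p = 0.185) without the library labelled replicate 2. Psat1, phosphoserine aminotransferase of serine synthesis, had a difference near 0 at its brightest probe (chromosome 19, 15979622 to 15979681, mm9, minus strand). Its levels were 3.30, 4.04, 3.18, 3.05 and 3.51 in wild-type, 3.97, 4.29 and 3.53 in normoglycaemic KO, and 3.16, 3.44 and 3.91 at the lowest, median and highest of hypoglycaemic KO. The highest wild-type and the highest normoglycaemic KO value came from the pancreas-rich replicate 2 of each group. The hypoglycaemic difference was 0.04 (SE 0.19, 95% interval −0.36 to 0.44, adjusted p = 0.93), and it was −0.21 within slide 1, 0.20 within slide 2, 0.22 without the 3 pancreas-rich libraries, 0.36 (adjusted p = 0.499) without the 5 richest and 0.09 without the library labelled replicate 2. A second, dimmer Psat1 probe, also well above background on all 15 arrays, gave 0.33, and the mean of both probes gave 0.19 (adjusted p = 0.66).

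Fgf21, a liver hormone of fasting and an ATF4 as well as a PPARα target, lay the other way. Its levels (chromosome 7, 52869305 to 52869364, mm9, minus strand) were −3.35, −3.92, −1.97, −2.61 and −2.18 in wild-type and −1.45, −2.80 and −1.30 in normoglycaemic KO. In hypoglycaemic KO the lowest, median and highest were −7.28, −5.28 and −2.46, and the probe was well above background in 4 of the 7 libraries. The values split widely: replicates 1, 3, 5 and 7 lay below all wild-type libraries, while replicates 4 and 6 and the library labelled replicate 2 lay within the wild-type range. The difference was −1.85 (SE 0.83, 95% interval −3.62 to −0.08, unadjusted p = 0.0421, limma adjusted p = 0.247), with −0.89 within slide 1, −2.57 within slide 2, −1.69 without the 3 pancreas-rich libraries and −2.15 without the library labelled replicate 2. Its size depended on the background treatment, at −0.69 with normexp correction and −1.05 in the deposited log2 values.

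The hypoglycaemic livers were not uniform across the members. Replicates 1, 3, 5 and 7 held the 4 highest levels in 4 members, Ddit4, Trib3, Chac1 and Ddit3, and the 4 lowest levels of Fgf21. Over 27027 genes with a value in all 7, these replicates held the 4 highest levels in 5.6% and the 4 lowest in 5.46%, and the replicates were singled out from these members after their values were seen. The members above all wild-type libraries numbered 7, 7, 8 and 8 in these replicates, 5 in the library labelled replicate 2, 4 in replicate 4 and 6 in replicate 6. In normoglycaemic KO replicates 1, 2 and 3 they numbered 4, 1 and 2. Below all wild-type libraries lay Fgf21 in hypoglycaemic KO replicates 1, 3, 5 and 7, and Ddit3 in replicate 4 and the library labelled replicate 2. So did Asns in normoglycaemic KO replicate 3. The share of all genes outside the wild-type range was not counted per library. Blood glucose in hypoglycaemic KO replicates 1, 3, 5 and 7 was 9, 12, 14 and 29 mg/dl, and in replicates 4 and 6 it was 33 and 26 mg/dl. The library labelled replicate 2 came from a pup at 16 mg/dl.

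**Figure D2:**
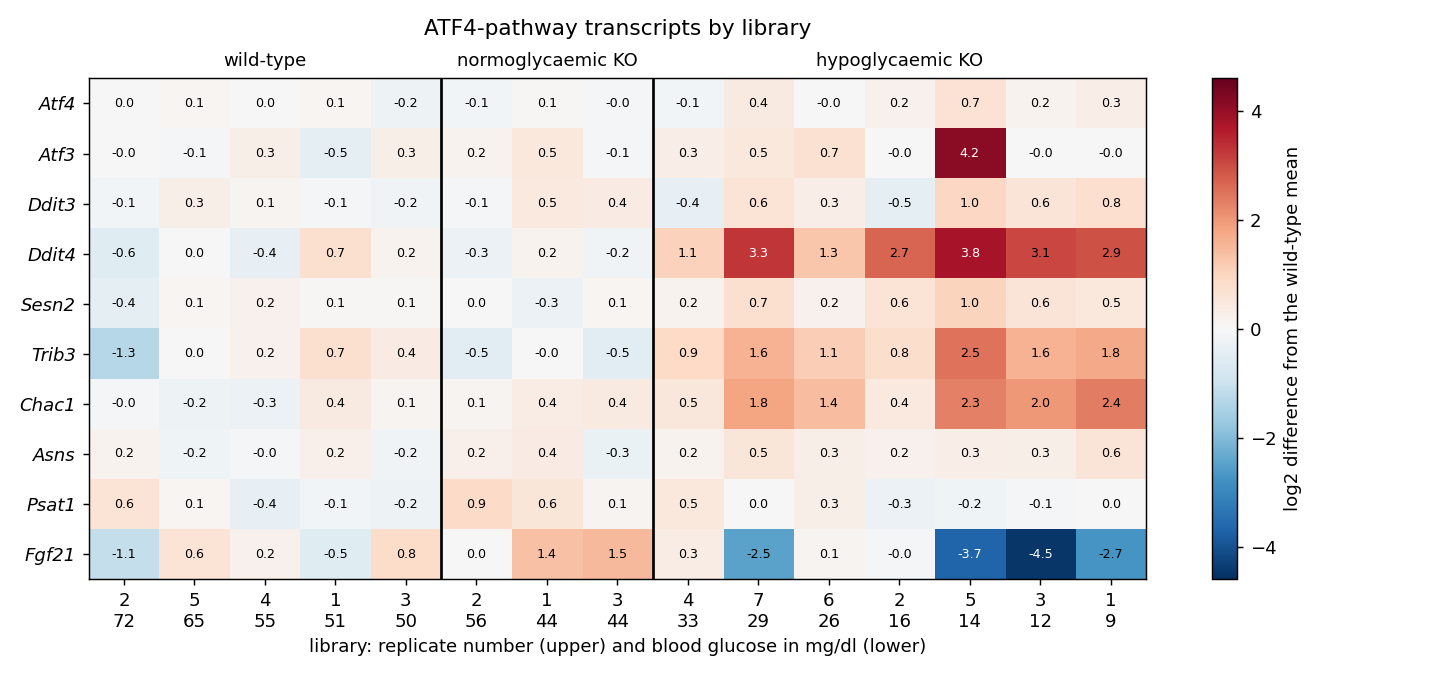
Each library's level of the 10 genes minus the wild-type mean of that gene (log2 scale, red higher and blue lower), with libraries ordered by group and by falling blood glucose. Ddit4, Chac1 and Trib3 are red across the hypoglycaemic KO columns, Atf3 stands out in replicate 5, and the lowest Fgf21 values fall in replicates 1, 3, 5 and 7.

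In the normoglycaemic KO livers, which carry the same deletion, Ddit4, Trib3 and Chac1 lay within the wild-type range or close to it. With limma, 0 of 10 members passed the adjusted threshold, as did 0.0% of all genes, and 1 member, Psat1, had an unadjusted p under 0.05, against 4.8% of all genes (3.08% higher). The Ddit4 difference was −0.08 (95% interval −1.24 to 1.07, adjusted p = 0.999), that of Trib3 −0.35 (−1.27 to 0.56, adjusted p = 0.974) and that of Chac1 0.30 (−0.57 to 1.17, adjusted p = 0.978). With 3 libraries these intervals still hold a change of 1 log2 unit, in either direction for Ddit4, downward for Trib3 and upward for Chac1. Psat1 was 1.43-fold higher (difference 0.52, SE 0.23, adjusted p = 0.965), and its difference was 0.49 without the pancreas-rich libraries. Fgf21 was 0.96 higher (95% interval −1.25 to 3.17, adjusted p = 0.974), with 2 of 3 libraries above all wild-type ones. The 2 Atf4 probes differed in sign here, at −0.04 and 0.29. In 0 members did the normoglycaemic KO and wild-type libraries separate fully, against 2.35% of all genes upward and 1.54% downward. The members had a median difference of 0.14, and all genes had one of 0.01.

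Set against the normoglycaemic KO group, which carries the deletion as well, the hypoglycaemic livers again had high Ddit4, Trib3, Chac1 and Sesn2. Ddit4 differed by 2.66, or 6.32-fold (SE 0.51, 95% interval 1.57 to 3.75, limma adjusted p = 0.0648). Trib3 differed by 1.82, or 3.54-fold (SE 0.40, adjusted p = 0.076), Chac1 by 1.26, or 2.39-fold (SE 0.38, adjusted p = 0.121), and Sesn2 by 0.59, or 1.5-fold (SE 0.18, adjusted p = 0.119). In all 4 genes every hypoglycaemic library lay above all 3 normoglycaemic KO libraries, a separation that 5.07% of all genes showed, while 0 members and 3.96% of all genes separated downward. With limma, 0 of 10 members passed, against 0.0544% of all genes, and 6 members had an unadjusted p under 0.05, namely these 4 upward (9.37% of all genes) and Fgf21 and Psat1 downward (9.97%). Within slide 1 and slide 2 the differences were 2.48 and 2.93 for Ddit4, 1.55 and 2.24 for Trib3, 1.09 and 1.43 for Chac1, and 0.58 and 0.55 for Sesn2, the slide 2 values being set against a single normoglycaemic KO library.

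Fgf21 was lower than in normoglycaemic KO by a difference of −2.80 (SE 0.97, unadjusted p = 0.0121, adjusted p = 0.149), with 5 of 7 libraries below all 3. The difference was −1.36 with normexp correction. Psat1 differed by −0.48 (SE 0.22, adjusted p = 0.252), all 7 libraries lying below the normoglycaemic KO mean, and by −0.28 without the pancreas-rich libraries. The differences of Atf4 (0.28), Atf3 (0.61), Asns (0.23) and Ddit3 (0.09) had adjusted p-values of 0.301, 0.667, 0.405 and 0.897. Leaving out the library labelled hypoglycaemic KO replicate 2 gave 2.64 for Ddit4, 1.93 for Trib3 and 1.44 for Chac1 (adjusted p = 0.0906, 0.0906 and 0.0981). It gave 0.58 for Sesn2, 0.28 for Atf4, 0.75 for Atf3, 0.25 for Asns, 0.22 for Ddit3, −0.43 for Psat1 and −3.10 for Fgf21. The threshold was passed by Ddit4, Trib3 and Chac1 without hypoglycaemic KO replicate 4 (adjusted p = 0.0154, 0.0318 and 0.0424), and by Ddit4 and Trib3 without wild-type replicate 2 (0.042 and 0.0369). This comparison and the one with wild type share their 7 hypoglycaemic libraries, so they are not independent.

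**Figure D3:**
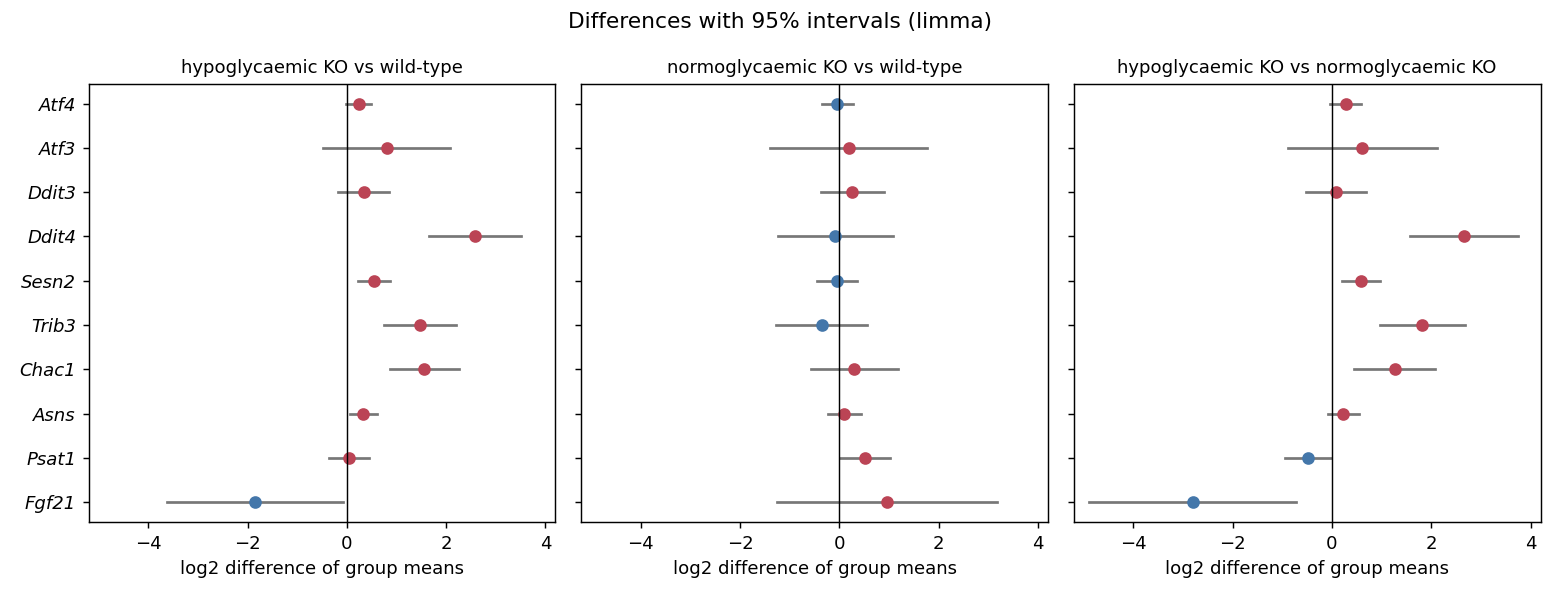
Differences of group means (log2) with 95% intervals from limma for the 10 genes, for each KO group against wild type and for the hypoglycaemic against the normoglycaemic KO group. The intervals of Ddit4, Chac1, Trib3 and Sesn2 lie above 0 in both comparisons of the hypoglycaemic group, those of Fgf21 lie below 0 in both, and none of these 5 excludes 0 between normoglycaemic KO and wild type.

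The relation to blood glucose was taken as 1 common slope within the 3 groups, per 10 mg/dl. The slope of Trib3 was −0.46 (SE 0.14, limma adjusted p = 0.123), that of Ddit4 was −0.52 (SE 0.20, adjusted p = 0.181) and that of Chac1 was −0.33 (SE 0.16, adjusted p = 0.303), so that the point estimates were higher at lower glucose. Psat1 had the opposite slope, 0.29 (SE 0.07, 95% interval 0.14 to 0.43, unadjusted p = 0.000836 by limma, adjusted p = 0.0699). With limma, 0 of 10 members passed, as did 0.0% of all genes, and 3 members had an unadjusted p under 0.05, against 18.1% of all genes. Of these 3, Psat1 had a positive slope (8.1% of all genes) and Trib3 and Ddit4 a negative one (9.98%). Of the 10 slopes 8 were below 0 and 2 above, while 43.9% of all genes had a slope above 0. The median slope was −0.13 over the members and −0.02 over all genes. Within slides 1 and 2 the slopes were −0.55 and −0.51 for Trib3, −0.71 and −0.44 for Ddit4, and 0.28 and 0.23 for Psat1. In the hypoglycaemic KO group alone they were −0.31, −0.70 and 0.21 (adjusted p = 0.554, 0.41 and 0.375). Without the library labelled hypoglycaemic KO replicate 2 the slopes were −0.50 for Trib3, −0.53 for Ddit4, −0.38 for Chac1 and 0.28 for Psat1 (adjusted p = 0.0871, 0.201, 0.112 and 0.0844). The Psat1 slope was 0.21 (adjusted p = 0.286) without the pancreas-rich libraries, and it was 0.32 and passed (adjusted p = 0.028) without hypoglycaemic KO replicate 7. With each of the 15 libraries left out in turn, the Trib3 slope ran from −0.52 to −0.31 (limma adjusted p from 0.0686 to 0.325). The Ddit4 slope then ran from −0.67 to −0.36 (limma adjusted p from 0.0531 to 0.474).

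**Figure D4:**
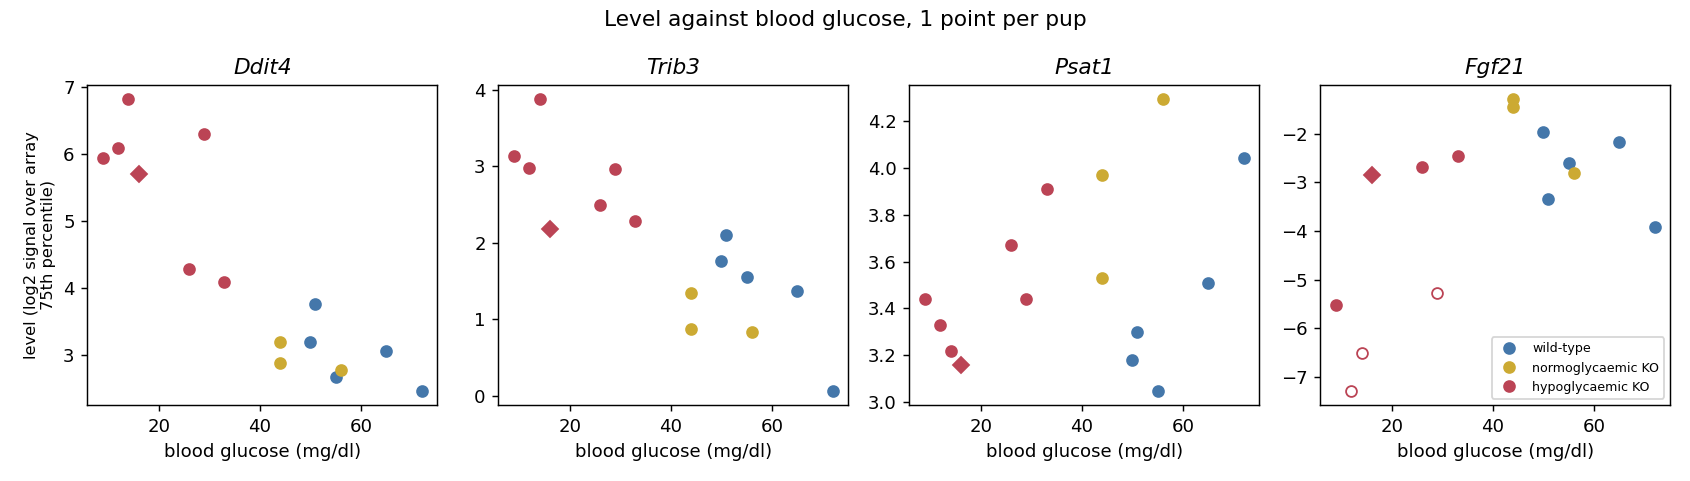
Levels of Ddit4, Trib3, Psat1 and Fgf21 (log2 signal over the array's 75th percentile) against each pup's blood glucose in mg/dl, coloured by group, with diamonds for the library labelled hypoglycaemic KO replicate 2 and open symbols for values not well above background. Ddit4 and Trib3 are above the wild-type libraries in the hypoglycaemic pups, at 9 to 33 mg/dl, and the hypoglycaemic Fgf21 values spread from −7.28 to −2.46.

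The rest of the pathway was read from 12 lists of genes, none of which had a gene past the adjusted threshold between hypoglycaemic KO and wild type, with or without the library labelled hypoglycaemic KO replicate 2. Without that library the list medians ranged from −0.14 (endoplasmic reticulum chaperones) to 0.80 (glucocorticoid-induced genes), against −0.21 and 0.81 with it. The counts here and below include it, and are to be read beside the shares over all genes. Of all genes 52.7% lay above 0. At an unadjusted p under 0.05 by limma, 9.71% of all genes were higher and 8.99% lower. In the sensing arm, 13 of 14 genes for the eIF2α kinases, eIF2 and its exchange factor eIF2B lay above 0, with a median difference of 0.17 and 4 at an unadjusted p under 0.05. Examples were Eif2b3, an eIF2B subunit (0.42, adjusted p = 0.139), and Eif2s2, the β subunit of eIF2 (0.26, adjusted p = 0.142). Among 6 genes for the eIF2α phosphatase and feedback, 3 lay above and 3 below 0. The phosphatase subunit Ppp1cc read 0.30 (adjusted p = 0.115), and Dnajc3, which inhibits eIF2α kinases, read −0.24 (adjusted p = 0.211).

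Of 10 bZIP factors that can pair with ATF4, 8 lay above 0, with a median of 0.50. The C/EBP factors Cebpd and Cebpb differed by 1.18 (2.26-fold, SE 0.28, limma adjusted p = 0.0889) and 0.62 (1.54-fold, SE 0.18, adjusted p = 0.117). The median of the bZIP list was −0.06 in normoglycaemic KO. In a list of 15 other ATF4 and CHOP targets, 14 lay above 0 with a median of 0.28, and 6 were higher and 1 lower at an unadjusted p under 0.05. Herpud1, of endoplasmic reticulum degradation, read 0.73 (SE 0.17, adjusted p = 0.0888), the autophagy receptor Sqstm1 0.54 (adjusted p = 0.104) and the autophagosome gene Map1lc3b 0.51 (adjusted p = 0.131).

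The genes of amino acid supply had small median differences. The median was 0.12 over 13 aminoacyl-tRNA synthetase and tRNA export genes (8 above 0). It was 0.23 over 9 of 10 listed amino acid transporters (8 above 0) and 0.14 over 12 synthesis genes (9 above 0). At an unadjusted p under 0.05 by limma, 3, 4 and 2 genes of these lists were higher, in that order, and 0 were lower. The shares over all genes were 9.71% and 8.99%. The cationic amino acid transporter Slc7a3 read 0.80 (adjusted p = 0.173), the neutral amino acid transporter Slc38a2 0.51 (adjusted p = 0.193) and the glycyl-tRNA synthetase Gars 0.25 (adjusted p = 0.193). The largest value among the named synthesis genes was that of Got1, an aspartate aminotransferase (1.22, SE 0.52, adjusted p = 0.225). Gpt2, the mitochondrial alanine aminotransferase, read 0.99, or 1.99-fold (SE 0.25, adjusted p = 0.0932). Within the 15 sestrin, REDD and mTORC1 genes, 9 lay above 0 (median 0.13). Ddit4l, the paralogue of Ddit4, lay in the other direction from it, at −0.67 (SE 0.18, adjusted p = 0.103), and Akt1s1, an mTORC1 inhibitor, read 0.28 (adjusted p = 0.099).

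Between hypoglycaemic KO and wild type, the median of the chaperone branch of the unfolded protein response differed in sign from that of the ATF4 targets. Of 18 genes of endoplasmic reticulum chaperones and degradation, 15 lay below 0, with a median of −0.21 and 5 lower and 1 higher at an unadjusted p under 0.05. Xbp1, its transcription factor, read −0.37 (SE 0.10, adjusted p = 0.099), and Sel1l, of the degradation complex, −0.50 (SE 0.13, adjusted p = 0.099). The median of this list was also below 0 in normoglycaemic KO, at −0.24 with 15 of 18 below 0. Between the KO groups it was 0.09, with 13 of 18 above 0.

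Lists of other regulators that share targets with the pathway were read beside it. All 13 glucocorticoid-induced genes tested lay above 0 in hypoglycaemic KO, with a median of 0.81 and 11 at an unadjusted p under 0.05. Examples were Sgk1, a kinase (1.39, SE 0.33, adjusted p = 0.0889), Tsc22d3, which encodes GILZ (1.09, SE 0.28, adjusted p = 0.0963), and the phosphatase gene Dusp1 (1.12, SE 0.35, adjusted p = 0.128). Their median was −0.12 in normoglycaemic KO and 1.23 between the KO groups. Among 9 of 10 listed p53 targets 6 lay above 0 (median 0.19), with Cdkn1a, which encodes the cell cycle inhibitor p21, at 1.51 (SE 0.39, adjusted p = 0.099). Of 15 PPARα targets and Fgf21 receptor genes 9 lay above 0 (median 0.23). In that list Pdk4, a brake on glucose oxidation, read 1.33 (SE 0.30, adjusted p = 0.0864), Angptl4, an inhibitor of lipoprotein lipase, 0.86 (SE 0.22, adjusted p = 0.0958) and the receptor gene Fgfr4 −0.59 (SE 0.17, adjusted p = 0.12). The part of these regulators in the levels of the members was not tested.

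Of the 7 lists of cell type markers, 1 held a gene past the adjusted threshold. Of 8 natural killer and T cell markers, 7 lay below 0 in hypoglycaemic KO, with a median of −0.88, and Gzmb, the granzyme B gene, was lower at −1.12 (SE 0.16, limma adjusted p = 0.0431). All 8 were well above background on every array, and their mean level per library ran from −0.19 to 0.05 in wild-type. In the normoglycaemic group it ran from −0.70 to −0.30, and in the hypoglycaemic group from −1.04 to −0.29. Without the library labelled replicate 2 the median was −1.0 and 4 of the markers passed, namely Gzmb (−1.18, adjusted p = 0.0067), Gzma (−1.35, adjusted p = 0.00596), Klrd1 (−1.09, adjusted p = 0.006) and Cd3g (−1.46, adjusted p = 0.00393). The pancreas list had a median of 0.01 in hypoglycaemic KO (−0.20 without that library) and 1.22 in normoglycaemic KO, with 19 of 19 above 0 in the latter. The hepatocyte median was −0.08, that of granulocytes 0.16, of Kupffer cells −0.12, of endothelium 0.13 and of erythroid cells −0.01. The part of the immune cell markers in the members' differences was not tested.

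The genes whose levels ran most like those of the leading members were found by Pearson r over the 15 libraries. The search covered 13074 genes with a value and well above background on all arrays. Unnamed clones and names that are accessions were left out of it. For Ddit4 they were Gpt2, Cd300lf, Pim3 and Tsc22d3, each at r = 0.96. For Trib3 they were Lancl1 and Arih1 (0.97) and Dedd2 and Rsl1d1 (0.96), and for Chac1 Setd7 and Dsn1 (0.95) and Rabggtb (0.94). The 15 points share groups and slides, so that these values describe the libraries and have no test.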

How the data were processed

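Per the file headers, Agilent Feature Extraction 10.10 produced the intensity values of the 15 scanner files, subtracting background and detrending each array for the processed signal, with nothing done between arrays. The deposited table holds log2 values of 40048 probes, for which the submitters' processing notes name limma without a version. These values correlated at 0.99986 to 0.99999 with the log median spot signal, had a median of 7.8 on every array, and served as an alternative. A level is the log2 processed signal less the log2 of the 75th percentile of that array (non-control probes). Spots marked as outliers were set to missing. Each name was read by its brightest probe on average. A model of 3 group means was fitted with limma 3.58.1 in R 4.3.3, with 12 residual degrees of freedom, and a second one added a common slope on glucose. The threshold for a call was an adjusted p of 0.05, by Benjamini-Hochberg over the 27554 genes. The fits were tested on simulated data.

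The members and gene lists were chosen with earlier results of these data known. The text names all 10 members, up to 3 genes per pathway list with the smallest p in hypoglycaemic KO against wild type and, for the 3 members with the largest differences on all 15 arrays, the 4 most alike genes, of which 1 is not reported here. Deviations of same-numbered libraries from their group means correlated at −0.18 to 0.32 (11 pairs, 6 over 0.1). No values of differently numbered libraries are given beside these, so they cannot show whether the numbers mark pairs. The labels describe no such pairing, and replicate numbers were not taken as pairs in the main fit. Spread is between pups of 1 array each. Alternatives were background correction, scaling, filters, probe choice, slides and left-out libraries.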

Additional observations from a re-analysis of the deposited data

Results flagged for a closer look

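In 3 of 20 member and group sets tested, the value farthest out stood apart by a Dixon test, which chance alone gives in about 1 of 20 groups. Atf3 read 2.03 in hypoglycaemic KO replicate 5, where the next highest of the 7 libraries read −1.42. Atf4 read 5.72 in wild-type replicate 3, and the next lowest of the 5 libraries read 6.00. Sesn2 read 0.92 in wild-type replicate 2, one of the libraries with pancreas transcripts, and the next lowest read 1.37.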

How the results depend on the processing

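Over 15 alternatives (1 of them, without the 5 libraries richest in pancreas transcripts, chosen after seeing the data) and 15 left-out libraries, Ddit4, Chac1, Trib3, Sesn2, Atf4, Atf3, Asns and Ddit3 kept a positive and Fgf21 a negative difference between hypoglycaemic KO and wild type; Fgf21 has no value where every array had to be above background. The cause of the changes below was not tested.

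Members called in hypoglycaemic KO against wild type numbered 1 with normexp, 1 with median scaling, 1 with the deposited log2 values (Ddit4 each time, adjusted p = 0.0285, 0.0437 and 0.0358), 2 with the filter on all arrays (Ddit4, 0.0272; Chac1, 0.0476), and 0 to 3 with 1 library left out (3 without wild-type replicate 1 or hypoglycaemic KO replicate 4). Against normoglycaemic KO they were 2 with normexp, 2 with the filter on all arrays (Ddit4 and Trib3) and 0 to 3 without 1 library (3 without hypoglycaemic KO replicate 4). For the slope they were 1 with normexp, 1 with that filter (Psat1) and 0 to 1 without 1 library (hypoglycaemic KO replicate 7).

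Genes called in hypoglycaemic KO against wild type (5) numbered 73 (16 higher, 57 lower) with normexp, 24 (1 higher) with median scaling, 50 (6 higher, 44 lower) in the deposited values, 2 without a filter and 91 (27 higher, 64 lower) with the filter on all arrays. They numbered 0 within slide 1, 0 within slide 2, 15 with the slide row as a block and 3 with only the groups compared. Without the 3 pancreas-rich libraries there were 0, and without the 5 richest there were 5. With 1 library left out they numbered 0 to 746. Leaving out wild-type replicate 1 gave 746 (392 higher, 354 lower). Without hypoglycaemic KO replicate 4 there were 549 (232 higher, 317 lower), and without the library labelled hypoglycaemic KO replicate 2 there were 138. Against normoglycaemic KO (15) they were 127, 8, 30, 4 and 165 in the same first 5 settings, 9 with probes averaged, 0 with the slide as a block, 0 within slide 1, 3 within slide 2 (against that 1 library), 2 with only these groups, 0 without the 3 or the 5 pancreas-rich libraries and 0 to 952 without 1 library (952 without hypoglycaemic KO replicate 4). For normoglycaemic KO against wild type (0) they were 1 with normexp, 2 with quantile, 1 with median scaling, 2 deposited, 1 with the filter on all arrays, 3 within slide 2 (where 1 normoglycaemic KO library stands alone and is assumed to vary like the other groups), 3 with only these groups and 0 to 2 without 1 library (2 without the library labelled hypoglycaemic KO replicate 2). For the slope (0) they were 467 with normexp, 20 with quantile, 290 deposited, 524 with that filter, 4 with the slide as a block, 1 within slide 1 and 0 to 985 without 1 library (985 without hypoglycaemic KO replicate 7). Of 15 libraries left out, 14, 14, 2 and 4 moved these counts by over 1.5 times, in that order of comparisons.

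With the replicate number as a block, which the labels do not describe as a pairing, 0 genes were called in hypoglycaemic KO against wild type and 0 against normoglycaemic KO, 1 in normoglycaemic KO against wild type and 1 for the slope, and 0 members in any. Values near 0 that turned sign under this block were −0.0001 for Psat1 in hypoglycaemic KO against wild type, 0.005 for Sesn2 in normoglycaemic KO against wild type, −0.02 for Ddit3 between the KO groups and 0.001 for the Asns slope.

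Other turns of sign all concerned uncalled values. In hypoglycaemic KO against wild type Psat1 was −0.005 with the slide as a block, −0.21 within slide 1 and −0.05 to 0.20 without 1 library. In normoglycaemic KO against wild type Atf4 was 0.004 with normexp, 0.01 with quantile, 0.003 deposited, 0.12 with probes averaged, 0.02 without the 3 or the 5 pancreas-rich libraries and −0.10 to 0.007 without 1 library; Trib3 was 0.005 within slide 1; Sesn2 was 0.01 with the slide as a block, 0.05 within slide 1 and −0.15 to 0.05 without 1 library; Ddit4 was −0.23 to 0.10 without 1 library; Atf3 was −0.24 within slide 2 and −0.003 with the slide row; and Asns was −0.17 within slide 2 and −0.04 to 0.29 without 1 library. Between the KO groups Atf3 was −0.26 and Ddit3 −0.07 within slide 1, and Ddit3 was −0.12 without the 3 and −0.10 without the 5 pancreas-rich libraries and −0.08 to 0.22 without 1 library. The slope of Atf3 was 0.12 within slide 1, 0.05 with the slide row, 0.13 without the 5 pancreas-rich libraries and −0.26 to 0.12 without 1 library, and that of Asns 0.007 with median scaling, 0.04 within slide 2, 0.05 with the slide row and −0.03 to 0.04 without 1 library.

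The normoglycaemic KO group has 3 arrays, which limits the precision of its comparisons, and Fgf21 was not well above background on 3 of the 15 arrays.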
